A study of Homo sapiens with 6 samples.

Results

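The genes described encode 10 enzymes that detoxify quinones, carbonyls, aldehydes and epoxides: NQO1, NQO2, CBR1, CBR3, EPHX1, AKR1B1, AKR1B10, AKR1C1, AKR1C2 and AKR1C3. They were chosen by name, and each was found as 1 of the 60709 genes with a value in the count table. The study measured messenger RNA in SH-SY5Y, an established human neuroblastoma line, 5 h after treatment with a fumarate linked to an Nrf2 peptide. Its 3 control wells received 10 uL of DMSO in 2 mL of medium. The 3 wells labelled Nrf2-peptide-linked fumarate received the same DMSO and 200 uL of a solution of 2 mg peptide in 600 uL water, and the labels give the controls no matching water. Columns of the table were matched by number to the 3 control samples only, so all values below are from libraries named as controls, and the response to the peptide was not analysed here. That name rests on the column numbers being those of the labels. If the table was numbered afresh, these could be the treated wells.

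Quinone reductases pass a hydride from a reduced nicotinamide cofactor to a quinone and form the hydroquinone directly, which avoids the reactive semiquinone. Carbonyl reductases of the short-chain family and aldo-keto reductases use NADPH to turn aldehydes and ketones into alcohols, and epoxide hydrolase adds water to an epoxide. Several of these genes are textbook targets of NRF2, which binds the antioxidant response element of their promoters or enhancers as a dimer with a small MAF protein. KEAP1 holds NRF2 low in unstressed cells, and the AHR is another activator of NQO1.

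The 3 libraries held 10683037, 11397407 and 8887854 counts. Levels are given as CPM, counts per 1000000 of the library total scaled with TMM factors. Of 14 markers of noradrenergic neuroblastoma fixed for the line, 13 had at least 10 counts in every library, while TH, the first enzyme of catecholamine synthesis, had 0 counts in each. Of 13 mesenchymal or fibroblast markers, 10 passed the same minimum, among them COL3A1 with 316 ± 22.9 CPM (SD, n = 3), and PRRX1 had 0 counts. The summed level ranged from 4460 to 4795 CPM for the first list and from 1017 to 1082 CPM for the second. No hepatocyte marker (of 6) and no blood marker (of 6) reached 10 counts in every library, and 1 of 5 epithelial markers did, EPCAM. In this bulk RNA, fewer cells expressing a gene and less RNA per cell cannot be told apart.

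Of the 10 genes, 8 had at least 10 counts in every control library, against 22.9% of all genes in the table. The table also holds non-coding genes and pseudogenes, while these 10 genes all encode enzymes, so the comparison is not between like sets. AKR1C2 fell short with 7 to 10 counts, and AKR1B10 had none. The 8 genes had a median of 30.7 ± 2.78 CPM (SD of the library medians, n = 3), and the 13920 genes of the table that passed the same minimum, called detected below, had a median of 31.3 ± 0.523 CPM. The 8 enzymes spanned 2.41 to 329 CPM, from CBR3 to AKR1B1.

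**Figure D1:**
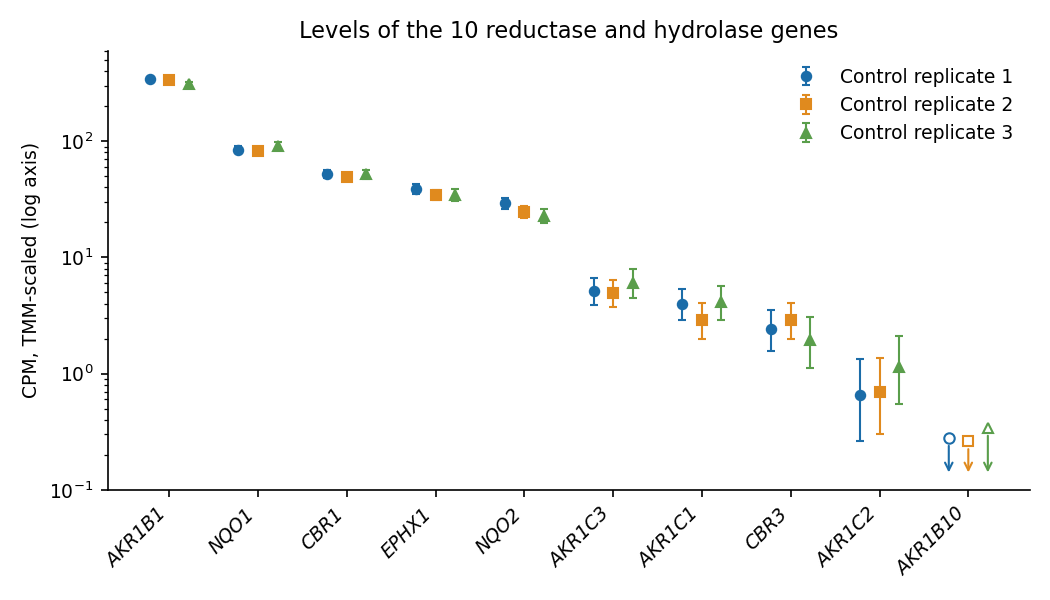
CPM of each gene on a log axis in control replicates 1, 2 and 3, with exact 95% Poisson intervals that cover counting error only. Open symbols with arrows mark the level of 3 counts, taken as the limit for the 0 counts of AKR1B10, 0.262 to 0.341 CPM. AKR1B1 lies above 310 CPM in each library and the AKR1C genes lie at or below 6.03 CPM.

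NQO1, the cytosolic quinone reductase whose induction is widely used as a readout of NRF2, was the more abundant quinone reductase. The gene (ENSG00000181019.13) lies on chromosome 16 from 69706996 to 69726951 on the minus strand (GRCh38, GENCODE release 29). It had 909, 939 and 803 counts, which is 84.6, 81.9 and 91.3 CPM in replicates 1, 2 and 3, with a mean of 86.0 ± 4.85 CPM (SD, n = 3). Replicate 3 was the highest and replicate 2 the lowest. Its CPM, which is not scaled for length, exceeded that of 78.4% of the 13920 detected genes.

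NQO2 is a flavoprotein relative that uses dihydronicotinamide riboside in place of NADH or NADPH. The gene (ENSG00000124588.22) lies on chromosome 6 from 2987987 to 3028869 on the plus strand. It had 313, 281 and 201 counts, or 29.1, 24.5 and 22.9 CPM, with a mean of 25.5 ± 3.25 CPM (SD, n = 3). Replicate 1 stood highest, and its 95% Poisson interval of 26.0 to 32.6 CPM did not reach the value of replicate 2 or 3.

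The ratio of NQO1 to NQO2 counts was 2.90, 3.34 and 4.00 in replicates 1, 2 and 3 (mean 3.41 ± 0.549, SD, n = 3). NQO1 was therefore the higher of the pair in all 3 libraries, without overlap of the libraries. The size of the gap depended on the gene length used, since NQO2 has 1 annotated transcript of 10084 bases while its coding transcripts have a median of 851 bases. Per base of the longest transcript the ratio was 11.8 ± 1.90, and per base of the median coding transcript it was 2.86 ± 0.461. The coding sequences of NQO1 and NQO2, of 822 and 693 bases, were identical at 48.8% of aligned positions, with no identical run over 12 bases.

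CBR1, a carbonyl reductase that acts on prostaglandins, quinones and anthracycline drugs, had the smallest spread relative to its level of the 9 genes with counts. The gene (ENSG00000159228.13) lies on chromosome 21 from 36069941 to 36073166 on the plus strand. Its counts of 562, 567 and 456 gave 52.3, 49.5 and 51.9 CPM, a mean of 51.2 ± 1.54 CPM (SD, n = 3). The SD was smaller, relative to the mean, than the 4.37% that counting alone gives at these counts. The 3 libraries thus differed by no more than sampling noise.

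CBR3 is the neighbouring paralog on chromosome 21, from 36134912 to 36146566 on the plus strand (ENSG00000159231.6). It had 26, 33 and 17 counts, or 2.42, 2.88 and 1.93 CPM, with a mean of 2.41 ± 0.473 CPM (SD, n = 3). All 3 Poisson intervals overlapped, the widest running from 1.98 to 4.04 CPM in replicate 2. CBR1 had 21.6, 17.2 and 26.8 times the counts of CBR3 in replicates 1, 2 and 3. Per base of the longest transcript the ratio was 13.3 ± 2.93, so CBR1 was the higher paralog in every library by either measure. Their coding sequences, both of 831 bases, matched at 77.0% of positions. The antisense gene CBR3-AS1 overlaps 42.2% of the exonic bases of CBR3. Whether the counting used strand is not stated in the sources used here. CBR3-AS1 itself was given 2, 5 and 3 counts. Those counts cannot show whether reads in the overlap were left out for both genes. The level of CBR3 and its ratio to CBR1 carry this limit.

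EPHX1, the microsomal epoxide hydrolase, was measured at 38.6, 34.6 and 34.6 CPM from 415, 396 and 304 counts. The gene (ENSG00000143819.13) lies on chromosome 1 from 225810092 to 225845563 on the plus strand. Its mean was 35.9 ± 2.35 CPM (SD, n = 3), above 53.5% of the 13920 detected genes on the CPM scale. Replicate 1 was the highest, and its Poisson interval of 35.0 to 42.5 CPM lay just above the values of replicates 2 and 3. The opposite-strand gene TMEM63A shares 1.12% of the exonic bases of EPHX1. Opposite-strand genes also overlap 18.9% of the exonic bases of CBR1, 17.7% of those of NQO1 and 5.46% of those of NQO2. With the strand setting of the counting unknown, whether reads in these stretches were left out cannot be told.

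AKR1B1, aldose reductase, which turns glucose into sorbitol in the polyol pathway and also reduces lipid aldehydes, was the most abundant of the 10 genes. The gene (ENSG00000085662.14) lies on chromosome 7 from 134442350 to 134459284 on the minus strand. It had 3656, 3844 and 2729 counts, which is 340, 335 and 310 CPM, with a mean of 329 ± 16.1 CPM (SD, n = 3). Replicate 3 was the lowest, and its Poisson interval of 299 to 322 CPM lay below those of replicates 1 and 2. By CPM AKR1B1 ranked 409 among all genes and exceeded 97.1% of the 13920 detected genes. It alone held 60.9 ± 1.61% of the summed CPM of the 10 genes. Per base, its share of the sum was 66.8 ± 1.47% with the longest transcript and 54.8 ± 1.70% with the median coding transcript.

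AKR1B10, a paralog best known as a retinal and aldehyde reductase of the intestine and as an NRF2 target in epithelial tumours, had 0 counts in each library. The gene (ENSG00000198074.10) lies on chromosome 7 from 134527592 to 134541408 on the plus strand. Taking 3 counts as the limit compatible with 0, its level could be up to 0.279, 0.262 and 0.341 CPM in replicates 1, 2 and 3. Against that limit the counts of AKR1B1 were at least 910-fold higher in replicate 3, and at least 1219-fold and 1281-fold higher in replicates 1 and 2. The coding sequences of the pair are identical at 75.8% of aligned positions, with a longest identical run of 22 bases. The closer copies AKR1B15 and AKR1B10P1 also had 0 counts in each library.

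AKR1C1, AKR1C2 and AKR1C3 are hydroxysteroid dehydrogenases that act on progesterone, androgens and prostaglandins, and all are inducible by NRF2 in epithelial cells. They lie side by side on chromosome 10, AKR1C1 (ENSG00000187134.14) from 4963253 to 4983283 on the plus strand, AKR1C2 (ENSG00000151632.17) from 4987400 to 5018031 on the minus strand, and AKR1C3 (ENSG00000196139.14) from 5035354 to 5107686 on the plus strand. The opening 90 bases of their coding sequences, from GENCODE release 29, are shown because they make visible how little separates the copies that the counts must tell apart. Capitals mark bases that differ from AKR1C1.
AKR1C1: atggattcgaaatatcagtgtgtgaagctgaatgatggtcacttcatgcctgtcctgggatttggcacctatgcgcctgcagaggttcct
AKR1C2: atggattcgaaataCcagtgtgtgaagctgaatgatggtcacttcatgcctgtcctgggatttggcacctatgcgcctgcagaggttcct
AKR1C3: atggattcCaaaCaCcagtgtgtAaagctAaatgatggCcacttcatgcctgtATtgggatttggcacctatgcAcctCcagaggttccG
In this stretch AKR1C2 differs from AKR1C1 at 1 base and AKR1C3 differs at 11. Over the whole coding sequence of 969 bases, AKR1C1 and AKR1C2 matched at 98.0% of positions, with an identical run of 186 bases. AKR1C3 matched AKR1C1 at 91.4% and AKR1C2 at 91.0%.

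AKR1C3 had the highest counts of the cluster, 55, 57 and 53, which is 5.12, 4.97 and 6.03 CPM (mean 5.37 ± 0.572, SD, n = 3). AKR1C1 had 43, 33 and 36 counts, or 4.00, 2.88 and 4.10 CPM (mean 3.66 ± 0.677, SD, n = 3). AKR1C2 had 7, 8 and 10 counts, or 0.652, 0.698 and 1.14 CPM (mean 0.829 ± 0.268, SD, n = 3). The libraries did not overlap between the genes in CPM, but the Poisson intervals of AKR1C3 and AKR1C1 did in all 3 libraries, for example 3.86 to 6.67 CPM against 2.90 to 5.39 CPM in replicate 1. AKR1C4, the liver member of the cluster, had 0 counts in each library.

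Of the counts given to these 3 genes, AKR1C3 took 54.7 ± 3.06%, AKR1C1 took 37.0 ± 3.68% and AKR1C2 took 8.31 ± 1.72% (SD, n = 3). The split rested on 105, 98 and 99 counts in replicates 1, 2 and 3. The 95% Wilson interval of AKR1C2 in replicate 3 ran from 5.58 to 17.6%. AKR1C2 was the smallest share in every library, and its intervals lay below those of both other genes.

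**Figure D2:**
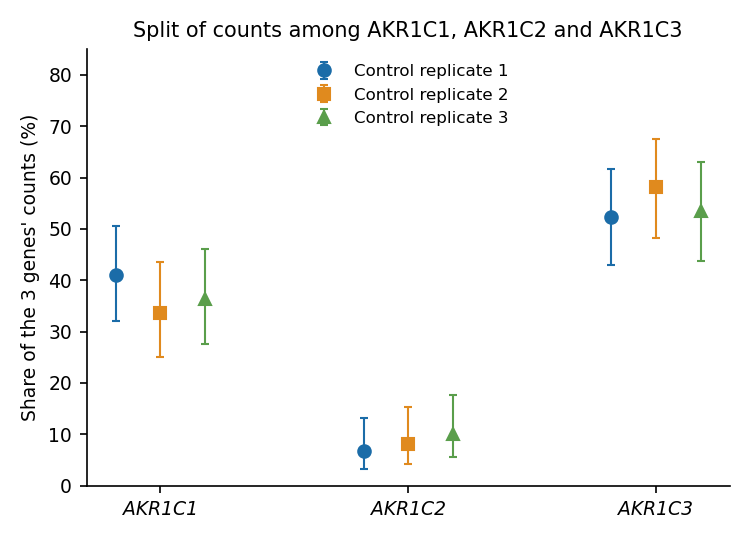
Share of the summed counts of AKR1C1, AKR1C2 and AKR1C3 that each gene took, in percent, in control replicates 1, 2 and 3, with 95% Wilson intervals. AKR1C2 lies between 6.67 and 10.1%, below both other genes, whose intervals overlap in replicates 1 and 3.

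How the counting treated reads that match several genes is not stated in the sources used here, and neither is the read length. Of the distinct stretches of 50 bases in the coding transcripts of AKR1C2, 48.1% also occur in a transcript of another gene, 47.0% in AKR1C1. For AKR1C1 the share was 27.0% and for AKR1C3 it was 9.55%. With stretches of 100 bases the shares were 28.3%, 16.3% and 3.85%. These shares depend on transcript length. The longest transcript of AKR1C1 has 6705 bases, while its coding transcripts have a median of 858 bases. The shares therefore do not say which gene would lose more if shared reads were dropped. The values of AKR1C1 and AKR1C2 are uncertain in level and in ratio. For CBR1, CBR3 and EPHX1 the share was 0% at both lengths, and NQO1 and AKR1B1 had 0.860% and 4.78% at 50 bases and 0% at 100 bases. NQO2 had 3.16% and 1.07%, with LINC01011, a gene with 9, 15 and 7 counts, as its main partner. AKR1B10 had 17.4% and 2.01%, so most of its sequence was its own. All these shares compare stretches on the transcript strand only, so they leave out overlap with opposite-strand genes.

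Levels of different genes can be set against each other only per length. They are given as TPM, each gene's CPM divided by its length and rescaled to a sum of 1000000 over genes of GENCODE release 29. With the longest transcript as length, AKR1B1 had 489 ± 40.5 TPM, NQO1 84.6 ± 1.84, CBR1 76.3 ± 2.70 and EPHX1 57.6 ± 4.99 TPM (SD, n = 3). The lower genes were AKR1C3 with 8.51 ± 0.586 TPM, NQO2 with 7.27 ± 1.10, CBR3 with 5.94 ± 1.34, AKR1C1 with 1.56 ± 0.262 and AKR1C2 with 0.628 ± 0.178 TPM. The ranges of neighbours in this order overlapped between AKR1C3 and NQO2 and between NQO2 and CBR3, and were apart for the others.

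The top of the order did not depend on the length. AKR1B1, NQO1 and CBR1 were the highest, in that order, with the longest transcript, with the median coding transcript and with the union of all exons, a choice added after the data were seen. The places below them did. NQO2 stood below AKR1C3 with the longest transcript, at 7.27 TPM, and next to CBR1 with the median coding transcript, at 40.6 ± 5.62 TPM, above EPHX1 with 29.3 ± 2.18 TPM. With the median coding transcript AKR1C1 had 5.77 ± 1.03 TPM and AKR1C3 had 6.12 ± 0.556 TPM. They no longer differed by more than the spread of the libraries. Each choice of length is rescaled to its own sum, so TPM values can be compared only within a choice.

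**Figure D3:**
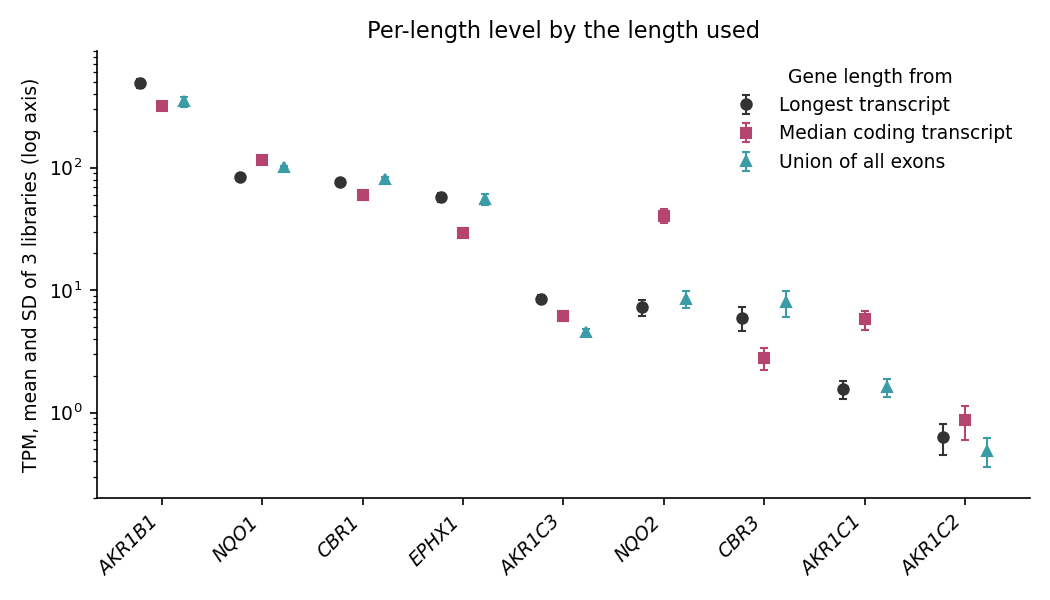
Mean TPM of the 9 genes with counts, on a log axis, with gene length taken from the longest transcript, the median coding transcript or the union of all exons. Bars are the SD of 3 control libraries. Each choice of length is rescaled to its own sum, so only the order within a choice can be compared. AKR1B1, NQO1 and CBR1 keep their places. From the longest to the median coding transcript, NQO2 goes from place 6 to 4 and AKR1C1 from place 8 to 7.

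To ask whether a gene differed between the control libraries by more than counting error, its 3 counts were tested by chi-square against the scaled library totals, with Benjamini-Hochberg adjustment over the 13920 detected genes. Of all genes tested, 26.9% passed an adjusted p of 0.05. Of the 8 genes of the group that could be tested, 1 passed, AKR1B1, with a chi-square of 7.36 per degree of freedom and an adjusted p of 0.00414. NQO2 came next, with 4.17 and an adjusted p of 0.0557. The adjusted p of the other 6 ran from 0.176 for NQO1 to 0.741 for CBR1. The test has more power at higher counts, and AKR1B1 had the most of the 8 genes. Its SD was 4.88% of its mean, against 12.8% for NQO2 and a median of 8.62% over the detected genes. The call therefore does not make AKR1B1 the most variable of the group. The test compares libraries and not conditions, and the labels do not say whether the 3 wells were separate cultures, so the spread may be technical.

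The libraries also differed by the GC content of the transcript. Across 10290 nuclear genes, replicate 3 was lower for GC-rich and higher for GC-poor transcripts than replicates 1 and 2. At the 53.5% GC of AKR1B1, the trend gave replicate 3 a log2 difference of -0.10 from the mean of replicates 1 and 2, and the measured difference was -0.12. With the trend removed, AKR1B1 stood at 327, 332 and 326 CPM, its SD went from 16.1 to 3.67 CPM and its adjusted p to 0.834, where 8.36% of all genes still passed. Without replicate 3 its adjusted p was 0.848, and 3.05% of all genes passed. The mitochondrially encoded share also differed between the libraries, from 3.83 to 6.25% of the counts. The cause of the AKR1B1 call was not tested.

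At the 49.2% GC of NQO2 the trend in replicate 3 was -0.02 on the log2 scale, while the measured difference of replicate 3 from the mean of the others was -0.23. Removing the trend left NQO2 at 28.8, 24.6 and 23.1 CPM, in the same order, with an adjusted p of 0.188. The adjusted p was 0.0398 with library size alone in place of TMM and 0.0286 without replicate 2, where 27.4% and 28.0% of all genes passed. It was 0.657 without replicate 1, 0.292 without replicate 3 and 0.109 with no filter on low counts, so the call of NQO2 depended on the setting.

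Of the 9 genes with counts, 8 had a lower SD once the GC trend was removed. The trend was fitted to these same libraries and the share over all genes was not computed. The count therefore says nothing particular about these genes, and the SD of AKR1C1 only went from 0.677 to 0.667 CPM. The exception was CBR1, whose SD went from 1.54 to 2.25 CPM. The GC-poor AKR1C1, AKR1C2 and AKR1C3 (40.2 to 42.4% GC) were each highest in replicate 3. Their log2 differences of replicate 3 from the mean of replicates 1 and 2 were 0.27, 0.75 and 0.26, where the trend gave 0.11, 0.17 and 0.14. By the chi-square test AKR1C1 and AKR1C3 were not called, where 26.9% of all genes were. AKR1C2 was below the minimum for that test. With no filter on low counts its adjusted p was 0.627, where 11.3% of all genes passed.

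**Figure D4:**
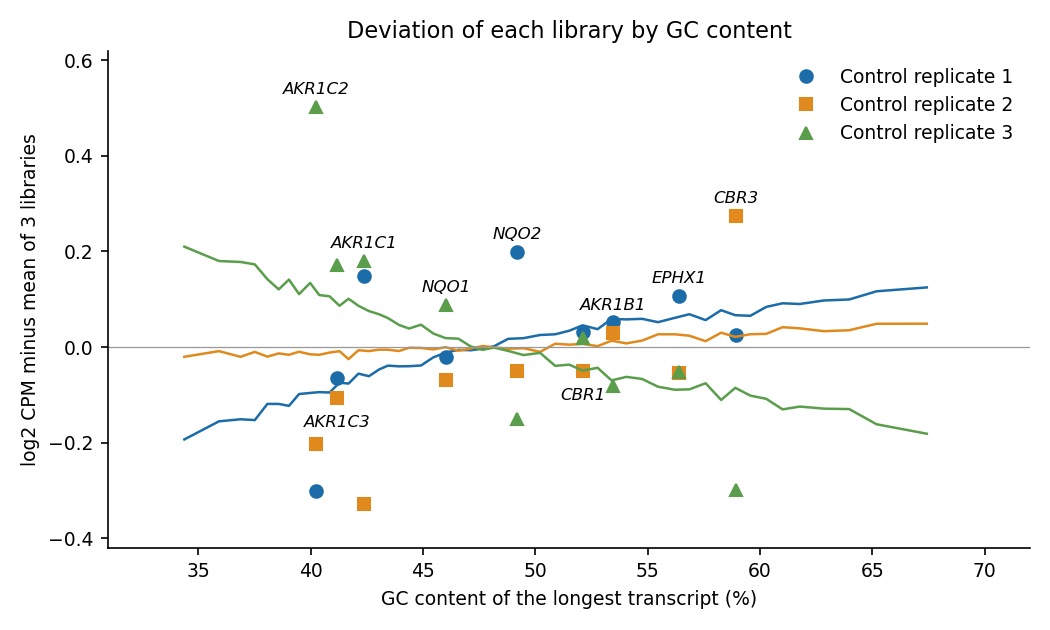
Difference of log2 CPM from the mean of the 3 control libraries for the 9 genes with counts, plotted against the GC content of the longest transcript in percent. Lines are the trend of each library over 10290 nuclear genes. Replicate 3 lies 0.08 below the mean at AKR1B1 and 0.50 above it at AKR1C2.

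RefSeq's table for GRCh38.p14 gave promoters, from 250 bases before to 50 after a start, for 8 of the 10 genes. AKR1B10 and CBR3 had none. The number of CpG dinucleotides in a gene's richest promoter was 41 for NQO2, 33 for AKR1B1, 29 for EPHX1, 27 for CBR1 and 14 for NQO1. It was 3 for AKR1C1, 3 for AKR1C2 and 0 for AKR1C3, in both of its promoters. Of 12555 genes with 14 or more CpG, 76.3% had at least 10 counts in every library, and of 2928 genes with 3 or fewer, 7.17% did. Of the 2279 genes with 4 to 8 CpG 15.5% did, and of the 1291 genes with 9 to 13 CpG 36.7% did. The median over all promoters was 14 CpG, so NQO1 lay at the median and at the lower edge of its class. The 5 genes with 14 or more CpG all passed the minimum. AKR1C1 and AKR1C3 passed it from the class with 3 or fewer, and AKR1C2 did not. The 250 bases before the start are printed for NQO2, the promoter richest in CpG, with CpG in capitals.
NQO2, chr6:2999644-2999893, plus strand: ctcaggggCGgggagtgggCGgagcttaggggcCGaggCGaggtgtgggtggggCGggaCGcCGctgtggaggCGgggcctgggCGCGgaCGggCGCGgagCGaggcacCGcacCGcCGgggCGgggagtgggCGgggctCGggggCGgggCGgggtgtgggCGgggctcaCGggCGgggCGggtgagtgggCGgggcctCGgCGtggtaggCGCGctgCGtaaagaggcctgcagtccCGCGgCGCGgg
The NQO2 stretch holds 36 CpG. The stretches before the starts of AKR1C1 and AKR1C2 were 96.5% identical to each other over 254 aligned positions.

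The core of the antioxidant response element was searched as TGACNNNGC on both strands. It was found in 13.3% of all 35116 promoters and in 2 of the 12 promoters of these genes, 1 of CBR1 and 1 of EPHX1. The matches are shown in capitals with 10 bases on each side, read along the strand of the gene.
CBR1, first base at position -159 from the start: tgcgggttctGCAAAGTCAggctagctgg
EPHX1, first base at position -78 from the start: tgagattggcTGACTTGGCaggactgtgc
The CBR1 match lies on the opposite strand and that of EPHX1 on the gene's own strand, in 1 of its 3 promoters, which holds 5 CpG. The AHR core GCGTG, on either strand, was present in 36.5% of all promoters and in 6 of the 12, belonging to NQO1, NQO2, CBR1, EPHX1 and AKR1B1, whose overlapping promoters share the match. No match in this window says only that these letters are not within it, and a match is not a binding site.

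The regulators of these genes were unevenly present. NFE2L2, which encodes NRF2, had 86.0, 92.2 and 119 CPM in replicates 1, 2 and 3, and replicate 3 was the highest. KEAP1 had 134 ± 11.7 CPM and the competing repressor BACH1 had 47.4 ± 1.55 CPM (SD, n = 3). Of the small MAF partners, MAFG had 217 ± 14.6 CPM, MAFK 12.6 ± 2.32 and MAFF 10.4 ± 1.55 CPM (SD, n = 3). No count fell on AHR in any of the 3 libraries, and the level of 3 counts, taken as the limit, was highest in replicate 3, at 0.341 CPM. Its repressor AHRR had 0, 2 and 4 counts, and its partner ARNT had 136 ± 7.91 CPM. NQO1 was present at 86.0 CPM in these libraries, in which AHR was not detected at this depth. Whether AHR bears on the level of NQO1 was not tested.

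A list of 77 related enzymes was measured beside the 10 genes. Per base of the longest transcript, 1 of the 77 lay above AKR1B1 in mean TPM, the thioredoxin reductase TXNRD1 with 676 ± 33.7 TPM (SD, n = 3). Of the 77, 11 lay above NQO1, 11 above CBR1 and 14 above EPHX1, while 49 to 63 lay above AKR1C3, AKR1C1, CBR3, NQO2 and AKR1C2. With the median coding transcript these numbers were 2 for AKR1B1, 7 for NQO1, 13 for CBR1, 25 for EPHX1 and 20 for NQO2.

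The genes named next have the highest CPM of their list, which is no order of levels, since CPM is not scaled for length. Of the other aldo-keto reductases, 4 of 9 had at least 10 counts in every library, among them AKR1A1 with 68.0 ± 3.35 CPM, AKR7A2 with 35.1 ± 2.65 and AKR1E2 with 10.9 ± 0.721 CPM. AKR1B15, AKR1C4, AKR1C8 and AKR1D1 had at most 3 counts in any library. AKR1A1 is the general aldehyde reductase, and AKR7A2 reduces succinic semialdehyde and aflatoxin dialdehyde.

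Short-chain carbonyl reductases passed the minimum in 16 of 17 cases, among them HSD17B10 with 133 ± 10.2 CPM, DCXR with 87.2 ± 9.84 and DHRS7 with 71.0 ± 4.36 CPM, and DHRS9 had 0 counts. The quinone and flavin-dependent reductases did so in 12 of 12, among them TXNRD1 with 1008 ± 22.3 CPM, POR, the electron donor of microsomal cytochrome P450, with 112 ± 10.6 and CYB5R3 with 96.2 ± 4.25 CPM. Medium-chain quinone and alkenal reductases did so in 9 of 9, among them VAT1 with 226 ± 4.92 CPM, TP53I3 with 39.9 ± 1.78 and CRYZ with 31.8 ± 1.38 CPM. NQO1 and NQO2 were therefore measured beside CRYZ, a quinone reductase of another family, whose per-length level of 31.4 ± 0.266 TPM lay between theirs with the longest transcript and below both, at 29.8 ± 0.854 TPM, with the median coding transcript.

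Of the other epoxide hydrolases, LTA4H had 103 ± 4.16 CPM and EPHX2, the soluble enzyme, 22.6 ± 0.466 CPM, while EPHX4 had 8, 8 and 3 counts and EPHX3 at most 2. Per base of the longest transcript EPHX1, with 57.6 ± 4.99 TPM, stood above EPHX2, with 20.7 ± 0.403 TPM. Genes of the aldehyde dehydrogenase family passed in 14 of 19 cases, among them ALDH18A1, which makes a precursor of proline, with 116 ± 2.74 CPM, the fatty aldehyde dehydrogenase ALDH3A2 with 94.4 ± 2.60 and ALDH9A1 with 89.8 ± 4.11 CPM. ALDH1A1 and ALDH3B2 had 0 counts. Of the alcohol dehydrogenases 1 of 7 passed, ADH5, with 138 ± 9.13 CPM, ADH6 had 9 to 11 counts, and ADH1A, ADH1B, ADH1C, ADH4 and ADH7 had at most 1. All these values are means with SD over 3 control libraries.

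**Figure D5:**
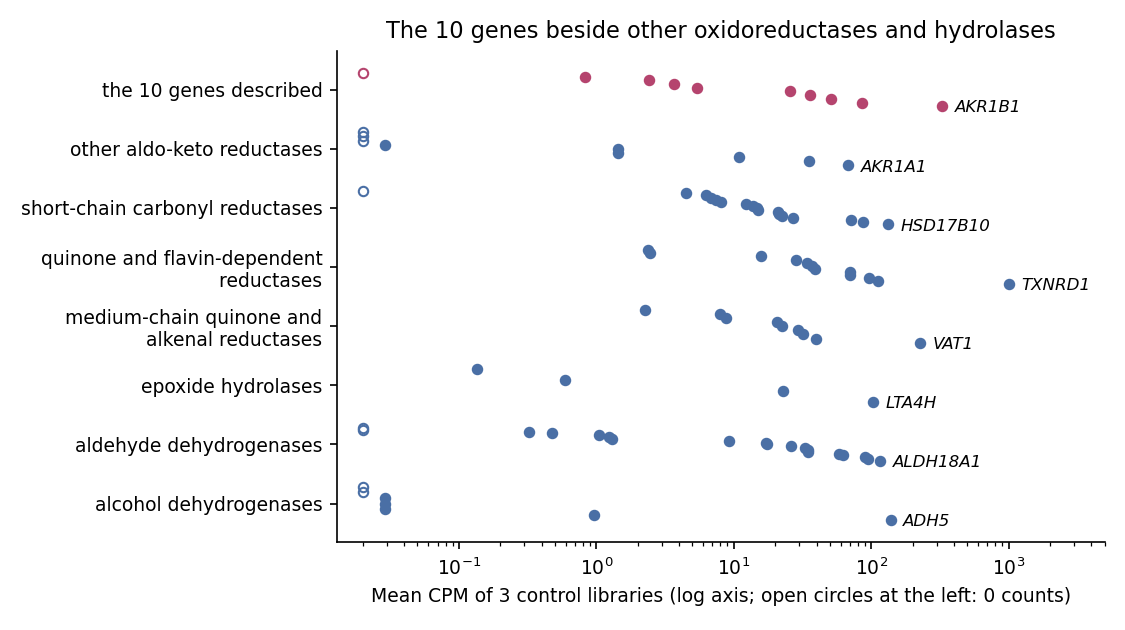
Mean CPM over 3 control libraries, on a log axis, of the 10 genes (top row) and of 77 related enzymes in 7 lists, 1 point per gene, with open circles for genes at 0 counts. CPM is not scaled by gene length. The gene with the highest CPM of each list is named, from AKR1A1 at 68.0 CPM to TXNRD1 at 1008 CPM.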

How the data were processed

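Per the labels' protocols, SH-SY5Y cells at 80% confluence were treated for 5 h, and messenger RNA was sequenced from stranded libraries. The deposited values are whole-number read counts for each Ensembl identifier, and the authors named them raw. Per the submitters' processing notes, fastp 0.21.1, STAR 2.7.7a and featureCounts were used with GRCh38. The annotation release, the strand setting and the handling of shared reads are not given in the sources used here. 3 further count columns matched no sample and were not used, so the planned edgeR comparison of peptide with control was not run.

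Symbols matched 60480 of 60709 genes. TMM factors came from edgeR 4.0.16 in R 4.3.3, over genes that reached 10 counts in all 3 libraries. Lengths, GC content and shared stretches came from GENCODE release 29, whose genes held 99.9% of the counts. The GC trend is the median deviation in 50 bins of genes whose mean count reached 100. Other steps used Python 3.11.15, scipy 1.17.1 and Biopython 1.88. Test and trend were run on simulated counts that held counting error and set changes only. The real libraries had a further common coefficient of variation of 7.82% in edgeR, which that check did not cover. Intervals are 95% and cover counting error only. The 10 genes and all lists were chosen with earlier results of these data known. All 10 genes and 9 regulators are named, and from each list of related enzymes the 3 with the highest CPM and those with at most 3 counts in every library.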

Additional observations from a re-analysis of the deposited data

How the results depend on the processing

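The number of genes that differed between the libraries beyond counting error was 1 of 8, where 26.9% of all genes passed. It became 2 with library size alone (AKR1B1 and NQO2), where 27.4% of all genes passed. Leaving out 1 library, it was 1 without replicate 1, 2 without replicate 2 and 0 without replicate 3. The shares of all genes were 16.3% without replicate 1 and 28.0% without replicate 2. With the GC trend removed it was 0 by the chi-square test. At an unadjusted p under 0.05 both counts of 0 became 1, NQO2, where 20.8% of all genes passed with the trend removed and 14.8% without replicate 3. After adjustment the share of all genes that passed was 8.36% with the trend removed, 3.05% without replicate 3 and 11.3% with no filter on low counts.

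The ratio of NQO1 to NQO2, 3.41 in counts, was 11.8 per base of the longest transcript, 2.86 per base of the median coding transcript and 12.1 per base of the exon union. CBR1 to CBR3 went from 21.9 to 13.3 with the longest transcript and 10.4 with the exon union. AKR1C1 to AKR1C2 went from 4.62 to 2.59 with the longest and 6.95 with the median coding transcript. AKR1C3 to AKR1C1 went from 1.49 to 5.54, 1.08 and 2.89 with the longest, median and union length. These changes follow from the lengths alone, and no mean ratio passed below 1. The ratio of AKR1C3 to AKR1C1 was below 1 in 1 library, 0.923 in replicate 1 with the median length.

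The median CPM of the 10 genes and the count of 8 genes detected moved by less than 1 SD or 1.5 times under the other settings. Leaving out mitochondrial genes raised CBR1 to 53.8 and AKR1B1 to 345 CPM, since it lowers every library total. AKR1C2, CBR3 and AKR1C1 rest on 7 to 43 counts per library, and counting alone gives them coefficients of variation of 35.0%, 20.6% and 16.5%. No paired analysis was possible because no column could be tied to a peptide sample, so 1 group remained.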
